A study of Mus musculus with 2 samples.

Results

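The genes of the tumour necrosis factor (TNF) ligand and receptor superfamilies, with the TRAF adaptors that act below the receptors and the inhibitor Tnfaip3, were followed in mouse calvarial cells at 2 times of osteoblast differentiation. Members were taken by symbol from the array's annotation: all probe sets with 1 symbol that begins with Tnfsf, Tnfrsf or Traf plus a digit, or that is Tnf, Lta, Ltb, Ltbr, Fas, Fasl, Cd27, Cd40, Cd40lg, Cd70, Ngfr, Edar, Eda2r or Tnfaip3. This gave 83 probe sets of 50 genes, out of 18193 genes with a probe set of 1 symbol. A further 3 probe sets carried several symbols that included a family symbol, and were not used. The rule also takes in the 3 TRAF3-interacting protein genes and Tnfsf13os, an antisense RNA. Both groups were CD11b-negative cells from the skull roof of newborn mice, kept in 50 µg/ml ascorbic acid and 10 mM β-glycerophosphate, for 5 days in the first group and for 12 days in the second. CD11b (gene Itgam) is a myeloid surface protein, so the depletion was aimed at macrophages and their kin. The strain, and whether animals were pooled, were not given in the sources used here, and neither day had a second treatment or an untreated control.

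TNF family ligands are trimers, mostly anchored in the cell membrane, that bind cysteine-rich receptors on neighbouring cells. Receptors with a death domain can recruit FADD or TRADD and start caspase-dependent death. Receptors without such a domain bind TRAF proteins, which lead to NF-κB and JNK signalling, and decoy receptors bind ligand without passing on a signal. In bone the family is best known for RANKL (Tnfsf11), which osteoblast-lineage cells present to osteoclast precursors carrying RANK (Tnfrsf11a), and for osteoprotegerin (Tnfrsf11b), the soluble decoy that blocks it.

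Each day was measured on 1 Affymetrix array with 45101 probe sets, as a MAS5 signal on a linear scale. With 1 array per day no error, test or p-value could be given, and every difference compares these 2 arrays. The median signal was 19.7 and 19.6. The 60th percentile of each array (46.6 at day 5, 44.8 at day 12) served as its floor, and a gene was counted as measured when its brightest probe set reached the floor on at least 1 array. The ratio of day 12 over day 5 was taken after lifting dimmer signals to that floor. Where 1 of the days was lifted, the ratio is only a lower limit of the difference and is given as "at least". Such a gene was counted past a threshold only where this limit reached it, so that a gene not counted may differ by more. Different probe sets bind with different strength, so signals are compared between days and not between genes.

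For the cell types, 6 of 7 measured osteoblast markers were at least 2-fold higher at day 12, among them Sp7, Alpl, Ibsp, Ifitm5 and Dmp1, and none was 2-fold lower. The summed signal of the 7 went from 8581 to 30184. The summed signal of 16 macrophage markers went from 5460 to 13840, and 12 of the 15 measured ones were at least 2-fold higher, including Tyrobp, Mpeg1, Fcer1g, C1qb and Cd68. Itgam itself lay below the floor on both days, at 14.6 and 35.4. All 7 T cell markers with a probe set, and 4 of 5 B cell markers, were below the floor on both days, and Blnk, the fifth, was at least 2.79-fold higher. Among 10 chondrocyte markers, 6 had a signal lower by 2-fold or more at day 12, led by Matn1, Snorc, Col9a2, Cnmd and Hapln1, and their summed signal went from 34372 to 16003. S100b, listed with the Schwann cell markers and also made by chondrocytes, was lower as well (log2 ratio -1.13). Cdh19, the other measured gene of the Schwann cell list, was lower too, from 58.4 at day 5 to 22.0, below the floor, at day 12. Sox10, also of the Schwann cell list, was below the floor on both days, at 6.35 and 4.29, as were Erbb3 and Gfra3. Which cells the S100b signal came from was not tested. Cspg4 of the mural cell list was higher, with a log2 ratio of 1.70, while Rgs5 went from 70.4 to 29.5 and was at least 1.57-fold lower. Acta2 of that list was level (log2 ratio 0.05), and Myh11 and Mcam were not measured. No gene of the keratinocyte, muscle, adipocyte and endothelial lists was counted past 2-fold, but all 3 measured adipocyte genes were lower at day 12. Fabp4 was 1.78-fold lower and Pparg 1.46-fold lower. Adipoq, at 75.1 and 17.5, ended below the floor and was at least 1.68-fold lower. The part of these cell types in the values given for the TNF family was not tested.

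Of the 50 genes, 22 were measured (44.0%, against 57.6% of all 18193 genes). At day 12, 3 of the 22 were at least 2-fold higher, where 3.56% of all 10479 measured genes were. They were Tnfsf9, the ligand of the costimulatory receptor 4-1BB, Tnfaip3, the ubiquitin-editing NF-κB inhibitor A20, and Tnfrsf19, an orphan receptor also called TROY. None of the 22 was counted as at least 2-fold lower, where 1.73% of all measured genes were. At the smaller threshold of 1.5-fold, the higher genes were the same 3 (background 7.25%), and the lower ones were Tnfrsf12a, Tnfsf11 and Tnfrsf21 (background 7.7%). Among 1907 dim measured genes, with a mean signal under 100, 22.5% passed 1.5-fold in either direction. Tnfsf11 and Tnfrsf21 are among these dim genes. The other 16 measured members were not counted past 1.5-fold, and for Tnfrsf23 among them the ratio is only a lower limit of the difference. The median log2 ratio of the 22 was -0.21 (quartiles -0.44 and 0.18), beside -0.05 (quartiles -0.27 and 0.17) over all measured genes. The signal was lower at day 12 in 15 of the 22, and in 56.3% of all measured genes. In such bulk cultures fewer cells of a type and less RNA per cell cannot be told apart.

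**Figure D1:**
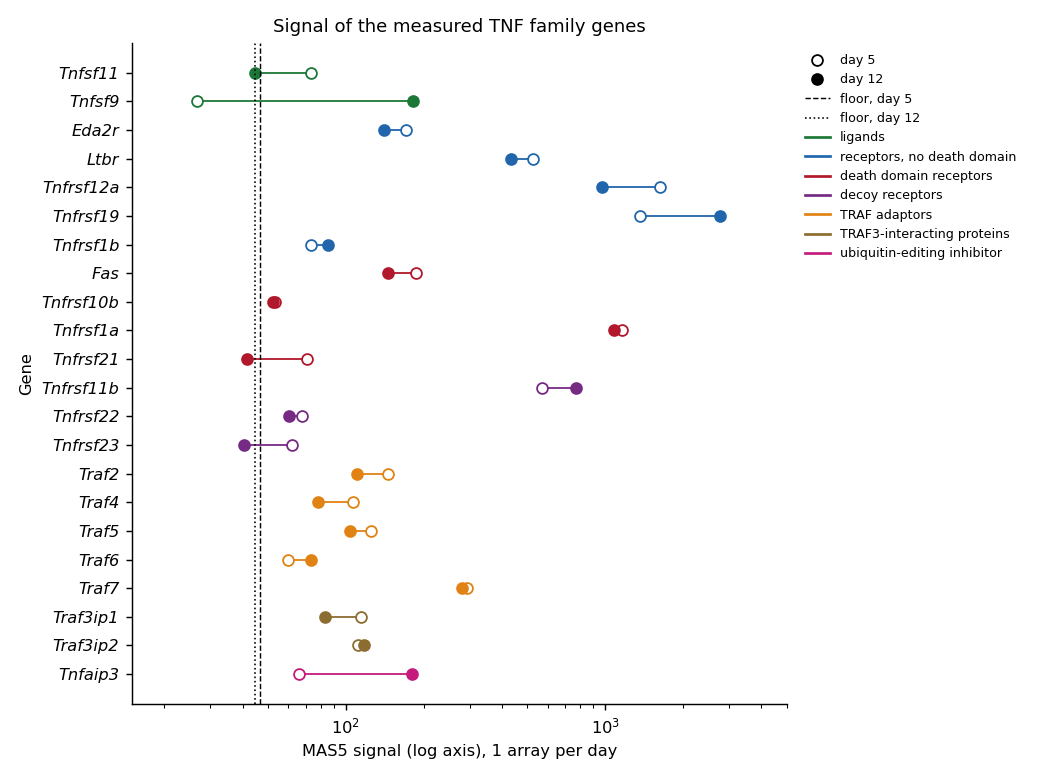
MAS5 signal (log axis) of the 22 measured TNF family genes at day 5 (open circles) and day 12 (filled circles), coloured by role, with 1 array per day and the floors of 46.6 and 44.8 as vertical lines. Tnfsf9, Tnfaip3 and Tnfrsf19 have the long lines that run to the right, and only Tnfsf9 starts from below the floor.

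**Figure D2:**
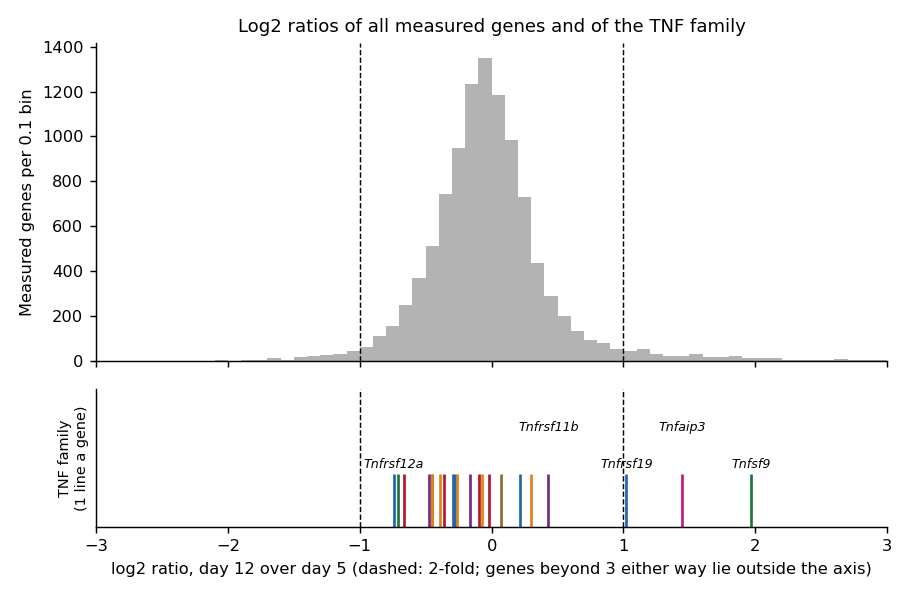
The number of measured genes per log2 ratio bin (upper panel, 10479 genes in all) and the log2 ratio of each of the 22 measured TNF family genes (lower panel, coloured by role). The median lies at -0.05 over all genes and at -0.21 in the family, and 3 family genes lie beyond the 2-fold line on the right and none on the left.

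The promoter windows of family members show where a known response element lies close to the start of a gene. RefSeq promoter windows (GRCm38.p6, 250 bases before to 50 bases after the start) were found for 40 of the 50 genes, in 45 windows. They were searched on both strands for GGANTTTCC, a form of the NF-κB element and the only motif searched. Other forms were not looked for, so a window, with or without a match, may hold unmarked ones. It occurred in 2 windows of the family (4.44%), those of Tnfaip3 and Ltb, and in 1.25% of all 32851 windows. Tnfaip3 is a textbook target of NF-κB and was higher at day 12, and Ltb, a subunit of lymphotoxin, was below the floor on both days. The bases upstream of the start are shown for these and for Tnfrsf19 and Tnfsf11, where the letters were not found. Capitals mark the match, which begins 24 bases before the start in Tnfaip3 and 87 bases before it, on the opposite strand, in Ltb.
Tnfaip3, chr10:19015411-19015660, minus strand: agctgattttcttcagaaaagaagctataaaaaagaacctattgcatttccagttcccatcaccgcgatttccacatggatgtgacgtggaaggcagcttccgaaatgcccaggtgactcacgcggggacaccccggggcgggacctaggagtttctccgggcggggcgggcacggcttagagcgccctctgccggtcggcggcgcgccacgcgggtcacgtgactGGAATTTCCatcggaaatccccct
Ltb, chr17:35194257-35194506, plus strand: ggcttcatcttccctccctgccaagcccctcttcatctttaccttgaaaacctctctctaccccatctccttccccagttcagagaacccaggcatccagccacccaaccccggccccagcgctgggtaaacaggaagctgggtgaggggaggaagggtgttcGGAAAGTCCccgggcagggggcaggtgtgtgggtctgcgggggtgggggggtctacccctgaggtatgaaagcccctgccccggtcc
Tnfrsf19, chr14:61037988-61038237, minus strand: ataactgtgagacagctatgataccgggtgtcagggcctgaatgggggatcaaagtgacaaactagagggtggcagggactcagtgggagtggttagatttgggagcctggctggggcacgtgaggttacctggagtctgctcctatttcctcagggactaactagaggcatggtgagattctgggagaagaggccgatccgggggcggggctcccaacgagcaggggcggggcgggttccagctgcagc
Tnfsf11, chr14:78308044-78308293, minus strand: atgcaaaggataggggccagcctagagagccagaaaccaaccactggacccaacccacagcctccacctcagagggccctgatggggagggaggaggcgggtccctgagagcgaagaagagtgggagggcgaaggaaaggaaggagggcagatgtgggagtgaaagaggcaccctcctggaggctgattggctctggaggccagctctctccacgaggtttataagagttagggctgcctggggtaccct
A match is a run of letters and not a measured binding site. A further window each of Tnfaip3 and Tnfrsf19, at another start of the gene, held no match.

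Among 13 ligand genes only 2 were measured, and they went in opposite directions. Tnfsf9 (4-1BB ligand), a costimulatory ligand of antigen-presenting cells, measured 26.6 at day 5, below the floor, and 182.3 at day 12. It was thus at least 3.91-fold higher, and 0.983% of all measured genes had a ratio as high. Its only probe set carries this value, so no second probe set could be set beside it. The receptor of this ligand, Tnfrsf9, lay below the floor with 8.66 and 10.4. In the genome Tnfsf9 stands next to the ligand genes Cd70 and Tnfsf14, and both were below the floor on both days (0.784 and 1.49 for Cd70, 2.26 and 5.04 for Tnfsf14). Tnfsf9 was therefore the only gene of this cluster that was measured. Macrophage and osteoblast markers were both higher on the same array, as given above, and which cells the Tnfsf9 signal came from was not tested.

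Tnfsf11 (RANKL) went from 73.2 to 44.8, which is 1.63-fold lower (log2 ratio -0.71). The day 12 value exceeds that array's floor by 0.055 signal units, so the ratio is close to a bound. The second probe set was below the floor on both days, at 24.6 and 20.4. Tnfrsf11b (osteoprotegerin) went the other way in both of its probe sets, from 572.6 to 771.3 (1.35-fold higher) and from 152.3 to 235.7 (log2 ratio 0.63). Neither gene passed 2-fold by itself. Taken as a change of Tnfsf11 relative to Tnfrsf11b, the log2 difference was -1.14, a ratio 2.20-fold lower at day 12, and -1.34 with the second Tnfrsf11b probe set. With a pseudocount in place of the floor it was -0.82, short of 2-fold. RANK itself (Tnfrsf11a) was below the floor on both days, at 12.9 and 10.7.

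The other 11 ligands did not reach the floor on either array, and ranged between 0.784 and 15.4. They include Tnf (1.51 and 1.05), the founding inflammatory ligand, Lta (1.66 and 11.7) and Ltb (1.37 and 8.14), which lie beside Tnf in the genome, and Fasl (4.89 and 7.52), which triggers Fas. Tnfsf10 (TRAIL), Tnfsf13b (BAFF), Tnfsf14 (LIGHT), Tnfsf4, Tnfsf8, Cd40lg and Cd70 complete the group. Signals this low have no order, and no ratio was taken. Many of them are made by T cells. All 7 T cell markers with a probe set were below the floor on both days, the highest being Cd8a at 32.2 and 38.0. The part of the cell types in these ligand signals was not tested.

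**Figure D3:**
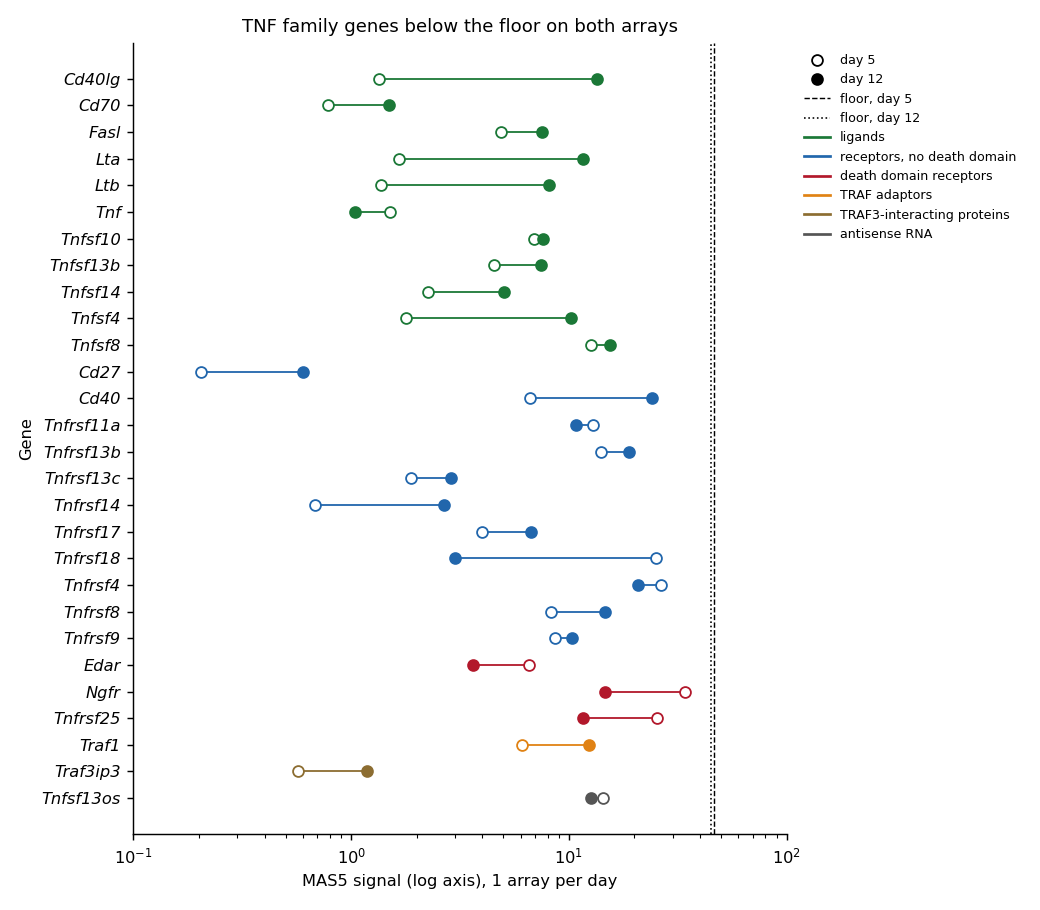
MAS5 signal (log axis) at day 5 (open circles) and day 12 (filled circles) of the 28 TNF family genes that lay below the floors (vertical lines, 46.6 and 44.8) on both arrays, with 1 array per day. The highest value is 34.1, for Ngfr at day 5, and 11 of the 28 genes are ligands.

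Of 16 receptor genes without a death domain 5 were measured, and their median log2 ratio was -0.28. The signal at day 12 was higher in 2 and lower in 3, beside 56.3% lower over all measured genes. Tnfrsf19 (TROY), found on progenitor cells of several tissues, went from 1363 to 2767, a 2.03-fold higher signal that lies just past the threshold. The second probe set gave less, with 187.0 and 243.8 (log2 ratio 0.38), and the third gave 25.0, below the floor, and 47.8 (at least 0.035). All 3 probe sets were thus higher at day 12. Only the brightest was counted past 2-fold, and the third gives only a lower limit. Tnfrsf12a (Fn14), the receptor of TWEAK and a gene of wounded and growing tissue, went from 1626 to 973.3 (1.67-fold lower). Its other probe set gave 1588 and 867.7, a log2 ratio of -0.87 beside -0.74, so both probe sets put it between 1.5-fold and 2-fold lower. Of all measured genes 4.19% had a ratio as low as the brightest one. Ltbr, the lymphotoxin β receptor, differed little, at 527.2 and 434.6 (log2 ratio -0.28). Eda2r, the receptor of the ectodysplasin A2 isoform, did too, at 171.3 and 140.1 (-0.29). Tnfrsf1b (TNF receptor 2), which is abundant on myeloid cells, was at 73.6 and 85.3 (0.21), beside a median log2 ratio of 1.37 in the macrophage markers.

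The remaining 11 receptors of that kind were below the floor on both days, between 0.204 and 26.5. Cd40, which mature antigen-presenting cells carry, was at 6.64 and 24.1. Cd27, Tnfrsf4 (OX40), Tnfrsf8 (CD30), Tnfrsf9, Tnfrsf14 (HVEM) and Tnfrsf18 (GITR) act in T cell costimulation, and Tnfrsf13b (TACI), Tnfrsf13c (BAFF receptor) and Tnfrsf17 (BCMA) are the B cell receptors of BAFF and APRIL. None of these receptors of lymphocytes was measured. The 7 T cell markers and 4 of 5 B cell markers with a probe set were below the floor too, while Blnk was at 31.7 and 130.2. A link between receptors and markers was not tested.

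All 4 measured death domain receptors had a lower signal at day 12, as had 56.3% of all measured genes. None of the 4 was counted past 2-fold, and Tnfrsf10b changed sign in 4 other settings of the processing. The median log2 ratio of these receptors was -0.23, with the limit of Tnfrsf21 at its floor value. Tnfrsf21 (DR6) went from 70.9 to 41.7, below the floor, and was at least 1.58-fold lower. Fas went from 186.6 to 145.7 (1.28-fold lower). Tnfrsf1a (TNF receptor 1), the main TNF receptor of non-immune cells, was nearly level at 1155 and 1082 (log2 ratio -0.09). Tnfrsf10b, the TRAIL receptor of the mouse that carries a death domain, was at 53.2 and 52.6 (-0.02), and its other measured probe set gave at least 0.11 in the opposite direction. Ngfr (p75, a neurotrophin receptor) was below the floor with 34.1 and 14.6, Tnfrsf25 (DR3) with 25.4 and 11.6, and Edar, the ectodysplasin receptor of skin appendages and teeth, with 6.59 and 3.63.

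Besides Tnfrsf11b, the decoy receptors include Tnfrsf22 and Tnfrsf23, neighbouring mouse genes that bind TRAIL and lack a death domain. Tnfrsf22 went from 67.7 to 60.3 (log2 ratio -0.17), and a second probe set, which ended below the floor, gave -0.38 or lower. Tnfrsf23 went from 62.1 to 40.5 and was at least 1.39-fold lower. These genes are close copies, and 1 probe set not used here carries both symbols, so their values are uncertain in their assignment.

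Of 6 TRAF adaptor genes 5 were measured, and none passed 1.5-fold. The signal at day 12 was lower in 4 and higher in 1, beside 56.3% lower over all measured genes. Traf3 is not among the members, as no probe set carried its symbol alone. Traf4, an adaptor with roles in development and cell contacts, was at 107.1 and 78.3 (log2 ratio -0.45). Traf2, which links TNF receptors to the cIAP ubiquitin ligases, was at 145.3 and 110.7 (-0.39), and Traf5 at 124.8 and 104.2 (-0.26). Traf7 was at 293.9 and 279.7 (-0.07). Traf6, the adaptor of RANK, CD40 and Toll-like receptors, was the higher gene, at 59.7 and 73.5 (0.30), with its other 4 probe sets below the floor. Traf1, itself induced by NF-κB, was below the floor at 6.11 and 12.4. Of the TRAF3-interacting proteins, Traf3ip1, a part of the ciliary transport machinery, was at 114.2 and 83.3 (-0.45), and Traf3ip2 (Act1), the adaptor of the IL-17 receptor, at 111.6 and 117.6 (0.07). Traf3ip3 lay below the floor at 0.570 and 1.18, as did the antisense RNA Tnfsf13os at 14.4 and 12.7.

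Tnfaip3 (A20), which removes and adds ubiquitin chains to end TNF receptor signalling, went from 65.9 at day 5 to 179.7 at day 12, 2.73-fold higher. Of all measured genes 2.03% had a ratio as high. Its other probe set was below the floor on both days, at 6.17 and 22.3, and gives no ratio. Day 5 lies near the floor, and with a pseudocount the log2 ratio was 1.0, a little under 2-fold. With a floor at the 75th percentile Tnfaip3 and Tnfsf9 both lost the difference (log2 ratios of -0.016 and 0.0045), since their day 12 signals lie close to that floor.

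**Figure D4:**
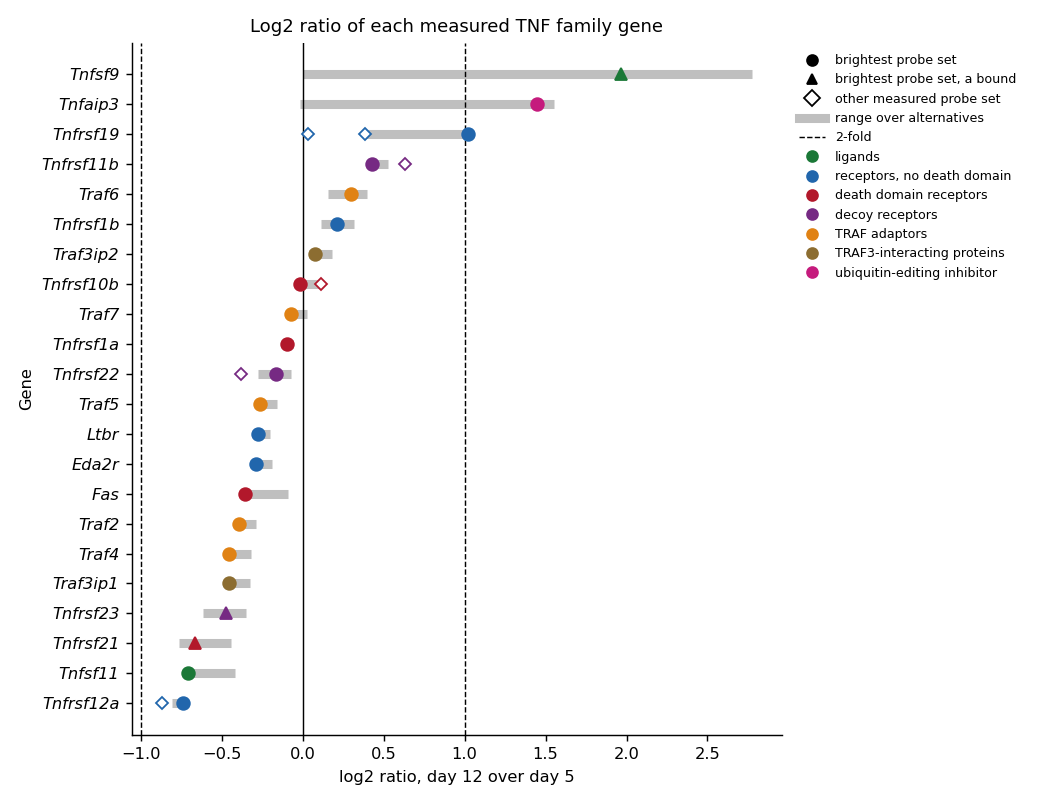
Log2 ratio of day 12 over day 5 for the 22 measured TNF family genes: filled circles are the brightest probe set, triangles are such values that are bounds, open diamonds are other measured probe sets, and grey bars span the alternatives. The bars of Tnfsf9 and Tnfaip3 reach down to about 0 and that of Tnfrsf19 to 0.38, while the bar of Tnfrsf12a stays between -0.81 and -0.71.

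The genes that carry the signal inside the cell were read from lists of pathway genes. The median log2 ratios of all 9 lists lay between -0.34 and 0.03, beside -0.05 over all measured genes. Of 8 measured NF-κB subunits and inhibitors none passed 2-fold. Relb, the subunit of the noncanonical pathway, was farthest, at 101.3 and 58.1 (log2 ratio -0.80). Nfkbie followed at 117.1 and 81.9 (-0.52), and Nfkbib was at 130.2 and 174.3 (0.42). Nfkbia, the inhibitor that NF-κB itself induces, was level at 1516 and 1585 (0.06). Among 11 measured kinases upstream of NF-κB and JNK, 2 were at least 2-fold higher and none lower. Of all measured genes 3.56% were higher and 1.73% lower by that much. Map3k5 (ASK1), which TRAF2 can activate, went from 92.3 to 224.2 (log2 ratio 1.28), and Map3k1 (MEKK1) from 45.7, below the floor, to 131.4 (at least 1.49). Both act toward JNK and p38, and the IκB kinase genes Ikbkb and Ikbkg had log2 ratios of -0.13 and -0.34. Chuk, another IκB kinase gene of the list, had no probe set with 1 symbol.

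All 13 measured genes among the death domain adaptors, caspases and their inhibitors lay within 2-fold. Their signal at day 12 was lower in 9 and higher in 4, beside 56.3% lower over all measured genes. The farthest were Bid, the link from death receptors to mitochondria (308.8 and 180.8, log2 ratio -0.77), Ripk3, the necroptosis kinase (441.9 and 267.1, -0.73), and the adaptor gene Fadd (124.3 and 87.8, -0.50). Of 12 regulators that bind TRAFs or edit ubiquitin, 1 was at least 2-fold lower and none 2-fold higher. Over all measured genes, 1.73% were lower and 3.56% higher by that much. The lower gene was Tank, a TRAF-binding protein that holds back NF-κB, which went from 556.4 to 232.2 (-1.26). Sharpin, a subunit of the linear ubiquitin ligase, was at 220.5 and 356.3 (0.69). The NF-κB target list was split, with 2 of 16 measured genes counted past 2-fold upward and 3 downward. The shares over all measured genes were 3.56% upward and 1.73% downward. Ier3 (log2 ratio 1.78), an early response gene, and Ptgs2 (1.20), the inducible cyclooxygenase, were higher, like Tnfaip3. The chemokine genes Ccl7 (at least 2.81-fold), Ccl2 (-1.26 in log2 ratio) and Cxcl5 (at least 2.14-fold) were lower. Il6 lay below the floor on both days at 8.87 and 10.0.

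In the smaller lists no gene was counted past 2-fold, although Atp6v0d2 has only a lower limit. The sheddase gene Adam17, which cleaves TNF from the membrane, was at 760.7 and 861.6 (log2 ratio 0.18), Rhbdf1, which helps it mature, at 673.1 and 570.1 (-0.24), and the inhibitor gene Timp3 at 2514 and 2714 (0.11). Eda, the ligand of Edar and Eda2r, was at 55.4 and 50.4 (-0.14), and its adaptor gene Edaradd was below the floor. In the neurotrophin list Sort1, Bex3 and Maged1, all partners of p75, had log2 ratios of -0.49, -0.43 and -0.34. Of 10 genes that RANK signalling turns on in osteoclasts, 4 (Calcr, Oscar, Ocstamp and Dcstamp) were below the floor on both days, at 4.37 or less. Of the 6 measured ones Atp6v0d2 was at least 1.84-fold higher, Mmp9 had a log2 ratio of -0.36 and Ctsk of 0.36.

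**Figure D5:**
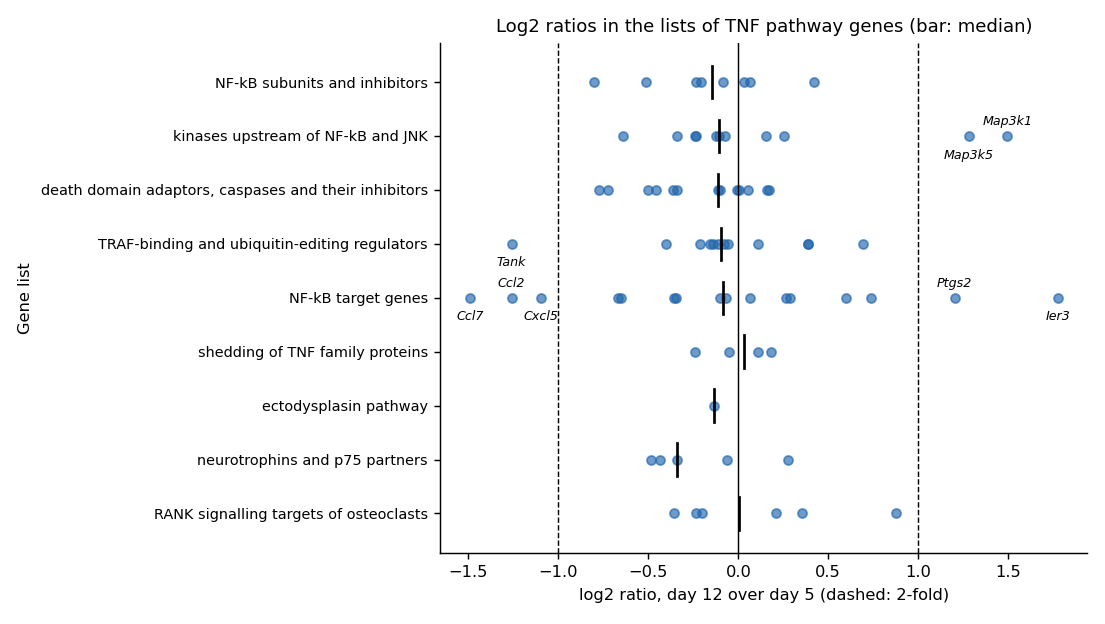
Log2 ratio of day 12 over day 5 for the measured genes (circles) of 9 lists of TNF pathway genes, with each list's median as a bar and the 2-fold thresholds as dashed lines. Medians lie between -0.34 and 0.03, and the labelled genes are the 8 counted past 2-fold, of which Map3k5, Map3k1, Ptgs2 and Ier3 are higher and Tank, Ccl2, Ccl7 and Cxcl5 lower at day 12.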

How the data were processed

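RNA from 1 culture at day 5 and 1 at day 12 was labelled with biotin and hybridised to 1 array each, per the labels' protocols. The authors deposited 1 table of signal intensity on a linear scale for 45101 probe sets. GCOS 1.4 and MAS5 are named in the submitters' processing notes. The mean after trimming 2% at each end was 200.0 on both arrays, so a change in total RNA cannot be seen. Detection calls were not used, and a genome build is not given in the sources used here. Signals were taken as deposited, with no further normalisation.

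Besides the 64 controls, 34945 probe sets had 1 symbol in the platform annotation, 932 several and 9160 none, and 34741 symbols were matched through the Entrez number to GRCm38.p6 names. The brightest probe set by mean log2 signal stood for a gene, and 10479 genes were measured. Between the 2 brightest measured probe sets of a gene (4446 genes) the median difference in log2 ratio was 0.17, which leaves out differences between cultures. Genes were named by rule: every measured member, list genes past 2-fold, and otherwise the 3 farthest of a list. The examples Nfkbia, Ikbkb, Ikbkg, Sharpin, Il6, Edaradd, Calcr, Oscar, Ocstamp and Dcstamp were chosen after their values were seen. So were Itgam, the adipocyte genes, Cd8a, the Schwann cell genes besides S100b and the mural cell genes besides Cspg4. Members and lists were chosen with earlier results of these data known. Some listed genes had no probe set with 1 symbol and are not analysed here. The code was tested on simulated data. Python 3.11.15, numpy 2.4.6, pandas 2.3.3 and statsmodels 0.14.6 were used.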

Additional observations from a re-analysis of the deposited data

How the results depend on the processing

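The scaling, floor, probe set and threshold were varied. The count of members at least 2-fold higher was 3, and was 2 under quantile normalisation and with the median over probe sets. It was 1 with the floor at the 75th percentile (Tnfrsf19, of 9 members then measured), 1 with a pseudocount (Tnfsf9) and 1 at a threshold of 3-fold (Tnfsf9). No member was counted as at least 2-fold lower in any setting at that threshold, and 3 were lower at 1.5-fold. The members' median log2 ratio kept its sign in all 8 settings of scaling, floor and probe set, between -0.28 and -0.07, while the median of all measured genes was 0.0097 after loess. Tnfaip3 turned to -0.016 with the 75th percentile floor, where its day 12 signal lies near the floor. Tnfsf9 ranged from 0.0045 with that floor to 2.78 with the 50th percentile floor. The change of Tnfsf11 relative to Tnfrsf11b was -0.82 with a pseudocount, and could not be taken with the 75th percentile floor, where Tnfsf11 was not measured. Among members within 2-fold, Traf7 changed sign after loess and Tnfrsf10b in 4 settings. Of 162 single-gene values under these settings, 153 moved by less than 0.17, the difference between probe sets of a gene. No paired analysis was possible because each day had 1 array, and for the same reason no replicate could be left out.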

Other observations

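Other genes named for TNF lay outside the families and were read by symbol after the members' values were seen. Of 6 genes whose symbol begins with Tnfaip, apart from Tnfaip3, all were measured and none was counted past 2-fold (median log2 ratio -0.26), but Tnfaip6 and Tnfaip8l2 have only lower limits of the difference. Tnfaip2 was at 464.1 and 703.4 (0.60) and Tnfaip8 at 626.3 and 393.5 (-0.67), and Tnfaip8l2, from below the floor, had at least 0.51. Tnfaip6, which binds hyaluronan, ended below the floor at 25.0 from 54.3. Of 8 C1q and TNF-related genes (C1qtnf) 6 were measured and none was counted past 2-fold. C1qtnf3, a secreted protein of cartilage and bone, was at 1988 and 1222 (-0.70), and C1qtnf12 was at 1495 and 1959 (0.39).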
